A study of Mus musculus with 4 samples.

Results

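The response of Dusp6-knockout (KO) mouse hepatocytes to a mixture of palmitic and oleic acid was described gene by gene, from 1 library with the fatty acids and 1 library without. Dusp6 codes for a phosphatase of the cytoplasm that switches off the MAP kinase ERK. Genes were taken when their FPKM, the read level per transcript length and library size, reached 1 in either KO library. This left 11468 of the 45777 genes in the table. The 3 genes just inside that limit were Atp6v0e2, Zfp273 and B3glct, with higher FPKM of 1.00018, 1.00081 and 1.0015 and log2 differences of 0.12, -0.49 and 0.10. Just outside lay Gm3734, Ttll3 and Gm10240, with higher FPKM of 0.999948, 0.998109 and 0.997634 and log2 differences of -0.18, -0.86 and 0.00.

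Primary hepatocytes, the main cells of the liver, came from Dusp6-knockout or wild-type (WT) mice and had 3 h in culture. They were then either not treated or given 0.5 mM palmitic acid with 1 mM oleic acid for 24 h. The time at which untreated cells were harvested is not stated here, and any effect of time in culture was not tested. All cultures shared DMEM with fetal bovine serum and antibiotics. Each of the 4 groups (KO untreated, KO with fatty acids, WT untreated, WT with fatty acids) held 1 library, and treated below means with fatty acids. The making of the Dusp6 allele, the strain, age and number of mice behind a library, and any vehicle of the control cells are points not given in the sources used here.

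Palmitic acid is a saturated and oleic acid a monounsaturated long-chain fatty acid. Hepatocytes take such acids up, activate them to acyl-CoA, and burn them in mitochondria and peroxisomes, hydroxylate them with Cyp4 enzymes, or store them as triglyceride in lipid droplets. Fatty acids also act as ligands of the nuclear receptor PPARα, which drives many genes of fat burning. ERK relays growth factor signals to transcription factors.

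With 1 library per group there was no replicate check, and no p-value could be had. Calls rested on size: log2(FPKM + 1) had to differ by at least 2-fold after centring on the median of 5903 genes with an FPKM of 5 or more in all 4 libraries. The word "difference" below means this centred log2 value, fatty acids minus untreated. Read folds, where given, were centred in the same way and carry exact binomial 95% intervals, which cover counting error only. Fewer cells of a type and less RNA per cell cannot be told apart in such bulk samples.

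The libraries held 85423156 (KO untreated), 97364292 (KO with fatty acids), 87272191 (WT untreated) and 89069900 reads (WT with fatty acids). Dusp6 itself (Entrez 67603, chromosome 10 of mm10, 99263231 to 99267489) showed an FPKM of 1.42 in untreated KO, 1.11 in treated KO, 40.7 in untreated WT and 77.1 in treated WT. Both KO libraries thus lay far below both WT libraries, as labelled. The hepatocyte markers were present, with Alb at an FPKM of 4137 and 4336 in the KO libraries, and 0 of the 10 hepatocyte markers was called. Untreated KO stood apart in ribosomal RNA: Rn18s-rs5, a ribosomal RNA related sequence, had 101973 reads there, against 3387 in treated KO, 5188 in untreated WT and 10461 in treated WT. Rn7s1 and Rn7s2, RNAs of the signal recognition particle, made up 3.94% of reads in untreated KO and 2.60% in treated KO. In WT their share was larger, at 6.20% untreated and 8.20% treated. What part these differences play in the results below was not tested.

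The response in KO was almost wholly toward lower values. Of the 11468 genes, 599 were lower with fatty acids (5.22% of those compared) and 12 were higher (0.105%). The same genes in WT gave the opposite balance, with 315 higher (2.75%) and 74 lower (0.645%). The median difference over all compared genes was -0.09 in KO and 0.02 in WT. Most genes moved little, and 6359 genes (55.4%) stayed within 0.25 of the median gene in KO, against 5683 (49.6%) in WT. The 1st and 99th percentiles were -1.62 and 0.55 in KO and -0.89 and 1.39 in WT, so that KO had the longer lower tail and WT the longer upper tail.

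**Figure D1:**
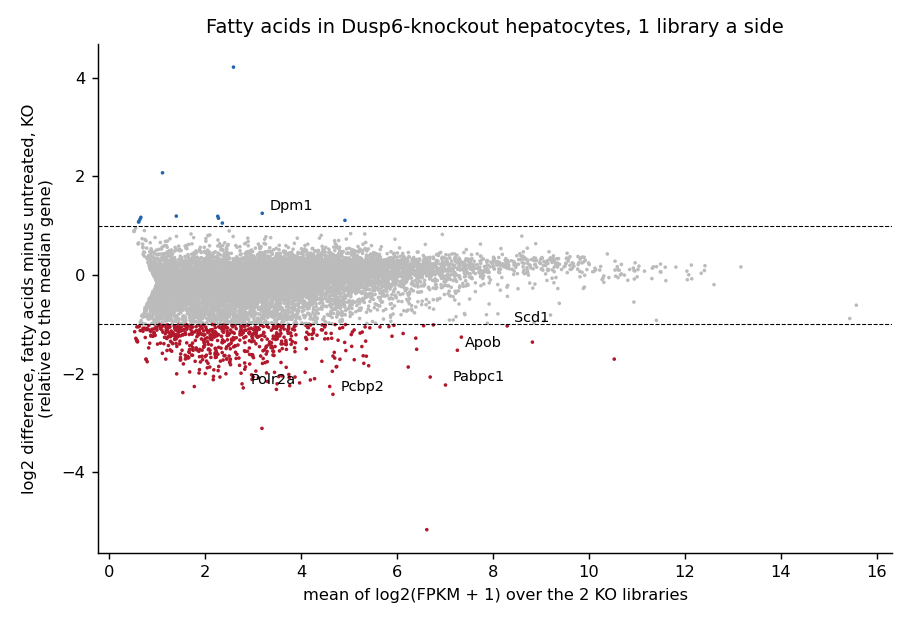
Difference with fatty acids in KO (vertical axis, centred log2) against the mean of log2(FPKM + 1) over the 2 KO libraries, 1 point per compared gene. The 599 lower genes (red) spread down from the dashed 2-fold line at low and middle levels, and the 12 higher genes (blue) are few.

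The lower genes had a median FPKM of 7.43 in untreated KO and 2.63 with fatty acids. Their share of all reads was 5.85% and 2.26%. On the log2(FPKM + 1) scale a gene of very low untreated FPKM cannot be called lower, so these levels are a description. Genes with a transcript were also split into 5 groups by FPKM. The share lower was 3.96% in the bottom group, 7.29% at 3.04 to 6.64 and 2.89% in the top group (28.3 or more). Of the 599 genes, 593 also passed a 2-fold rule in read counts and 31 were lower by 4-fold or more. Read counts and FPKM come from the same reads, so the 593 are no independent check. The rule in read counts alone gave 1015 lower and 50 higher genes. Protein-coding genes made up 531 of the 599, out of 10178 compared, while 68 of 1290 noncoding genes were lower and 9 higher.

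Both KO libraries sat at an extreme for these genes. After each library was centred on its reference genes, untreated KO was the highest of the 4 libraries for 512 of the 599 lower genes (85.5%), against 28.5% of all compared genes. KO with fatty acids was the lowest for 529 of them (88.3%), against 27.8% of all. Choosing genes for a low KO difference favours this order, so it is given as a description. Untreated KO being high and treated KO being low both went into the difference.

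Of the lowest genes that the naming rule took, 11 are described here. Pcbp2 (Entrez 18521, chromosome 15, 102470450 to 102500068), which binds runs of C in RNA, had an FPKM of 54.5 in untreated KO, 10.6 in treated KO, 25.3 in untreated WT and 11.4 in treated WT. Untreated KO was the highest library and treated KO the lowest. The difference was -2.42 in KO and -0.83 in WT, with a read fold of 5.76 (5.54 to 5.99).

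Pabpc1 (chromosome 15, 36595658 to 36609581), the main cytoplasmic protein on poly(A) tails, was the most abundant of these 11 genes. Its FPKM was 263 in untreated KO, 62.0 in treated KO, 119 in untreated WT and 76.6 in treated WT. The difference was -2.23 in KO and -0.36 in WT, and reads fell 4.75-fold (4.68 to 4.83). Polr2a (chromosome 11, 69733997 to 69758633), the largest subunit of RNA polymerase II, had 13.5, 2.33, 10.1 and 7.16 in the same order of libraries. Its read fold was 6.50 (6.18 to 6.85) and its difference -2.29, against -0.18 in WT. Of the 13 Polr2 genes compared, Polr2a was the sole one called, and Polr2b, the next largest subunit, had 23.6 and 25.4 in the KO libraries, a difference of -0.06.

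The other 8 genes ranged from -2.38 to -2.18. Aak1, a kinase of clathrin adaptors, went from 5.27 to 0.347 in KO and from 3.34 to 0.494 in WT. Ppp2r2a, a regulatory subunit of the phosphatase PP2A, went from 22.7 to 4.32 in KO and from 13.6 to 10.5 in WT. Ncl, the nucleolar protein nucleolin, went from 49.1 to 10.7 in KO and from 32.6 to 24.3 in WT. Eif4ebp2, a repressor of cap-dependent translation, went from 12.9 to 2.37 in KO and from 5.42 to 2.53 in WT.

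Ptpn23, which works in endosomal sorting, had an FPKM of 22.0 and 4.59 in the KO libraries, and Srrm2, a scaffold of the spliceosome, had 30.6 and 6.78. Olfr1033, annotated as an olfactory receptor gene, had 27.0 and 5.62 in KO, and 15.0 and 15.8 in WT. Raver1, a splicing cofactor, had 6.10 and 0.659 in KO. The overlapping noncoding gene Gm38431 had 0 reads in untreated KO and 1239 with fatty acids while Raver1 reads went from 2097 to 255, so reads of the pair cannot be told apart.

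**Figure D2:**
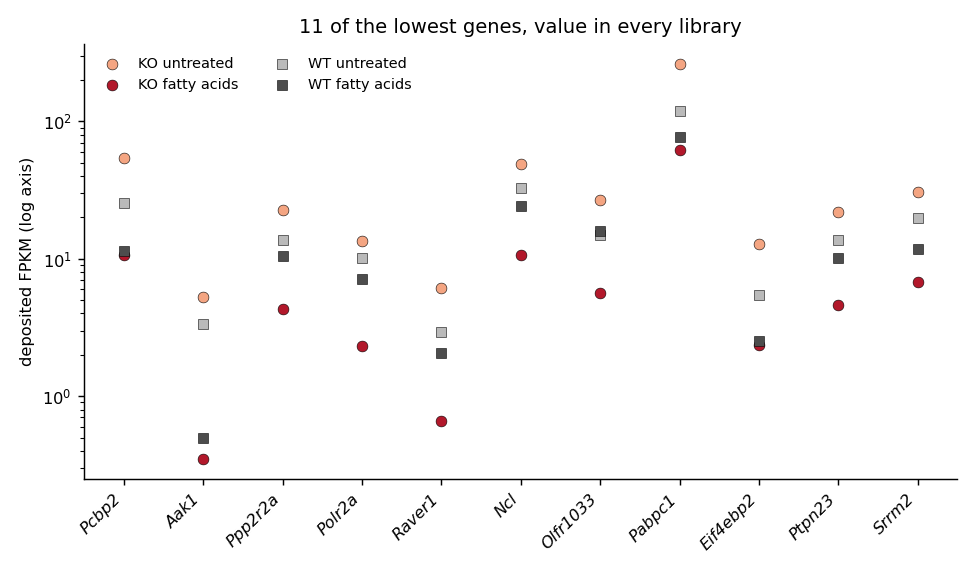
Deposited FPKM (log axis) of 11 of the lowest genes in each of the 4 libraries (circles KO, squares WT, pale untreated, dark with fatty acids), 1 library per point. The dark red circle, treated KO, is the lowest point for all 11 genes and the pale circle, untreated KO, the highest.

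Runs of C in the transcripts are shown because Pcbp1 and Pcbp2, which bind such runs, were both among the lower genes, with FPKM of 67.8 and 23.6 for Pcbp1 in the KO libraries. The search for 5 or more C in a row on the transcript strand was chosen after the values were seen. The longest transcript of each gene in GENCODE M21 (GRCm38, the build of mm10) was read, and 81.4% of 10218 compared genes with a transcript held such a run. The share was 94.6% of 536 lower genes, and 11 of the 12 lowest held one. Below, 30 bases around the longest run are printed for 3 of those genes, 5′ to 3′, with the run in capitals.
Pcbp2: tcatgttggagtCCCCCCCgaagggcgtga
Eif4ebp2: gctcatcatCCCCCCCCCCCCCattccttt
Ptpn23: tacaaccatatCCCCCCCCagctcatggag

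Eif4ebp2 held a run of 13 C, Ptpn23 of 8 and Pcbp2 of 7. Long transcripts hold more runs, so genes were compared within 5 groups of equal size by transcript length. In the longest group (5126 bases or more), 5.32% of 94 genes with 0 runs were lower in KO, and 24.9% of 856 genes with 6 or more runs. In the middle group (2818 to 3786 bases) the shares were 1.69% of 296 and 8.21% of 280. Genes there with 1 to 2 and 3 to 5 runs had 2.03% and 2.94%. In the shortest group the shares were 1.05% of 859 and 5.71% of 35, the latter being 2 genes. Genes of many runs were also longer within a group, at a median of 7148 bases against 6029.5 in the longest and 1626 against 1191 in the shortest. A run is a description of the letters and no binding site was measured. Median GC content of the lower genes was 48.5%, against 49.3% over all genes with a transcript.

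Genes of longer transcripts had lower differences in KO. Across these 10218 genes, Spearman's rho of length with the difference was -0.55 in KO and -0.17 in WT, as a description across genes of the same libraries. The median transcript was 5788 bases for lower genes and 3265.5 for all. In the shortest decile the median difference was 0.16 in KO and 0.13 in WT, and 1.57% and 1.27% of genes were lower. In the longest decile (6642 bases or more) the median was -0.63 in KO and -0.10 in WT, and 216 of 1022 genes (21.1%) were lower in KO, against 0.391% in WT. As KO minus WT, the longest decile had a median of 0.30 in untreated cells and -0.23 with fatty acids. Each value sets 1 KO library against 1 WT library, so the part of each library cannot be told apart.

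**Figure D3:**
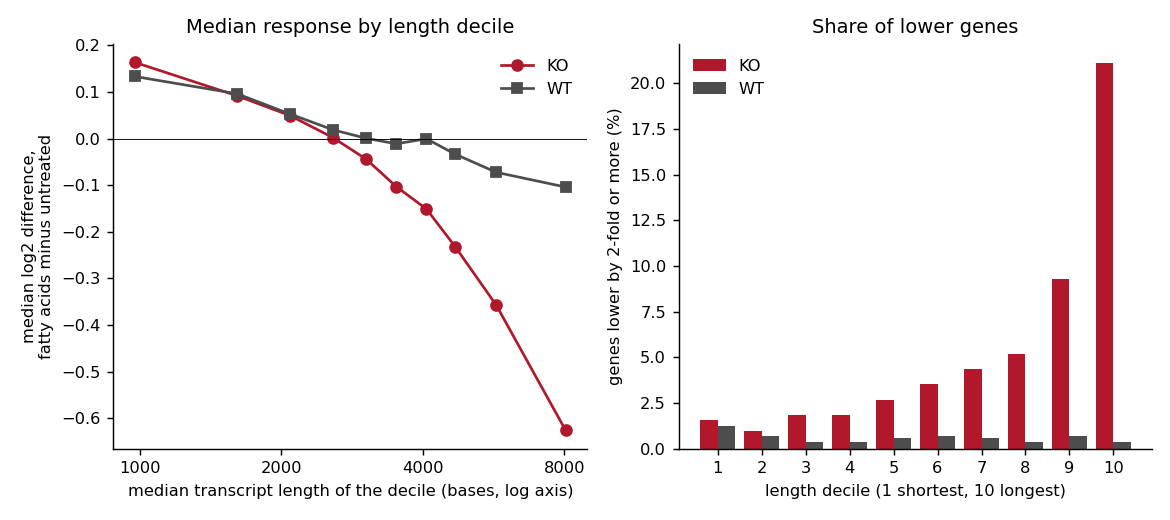
Median difference with fatty acids (left) and share of genes lower by 2-fold or more (right) by decile of transcript length, in KO (red) and WT (grey). In KO the median goes from 0.16 to -0.63 and the share from 1.57% to 21.1%, while in WT the median ends at -0.10.

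When the trend of length was taken out by a smooth curve, 295 genes were lower in KO (2.89% of those with a transcript) and 12 were higher (0.117%). Of the 295, 272 were among the 599. The 12 higher were not the same set as the 12 before adjustment, with Dpm1, Tmub1 and Dedd2 in both. Others had very long transcripts, such as D10Wsu102e (123179 bases), which went from -0.27 to 2.31, and D1Ertd622e (40378 bases), from -0.32 to 1.42. After adjustment Pcbp2 was at -2.40, Pabpc1 at -2.24, Polr2a at -1.89, Ncl at -1.73, Srrm2 at -1.59 and Aak1 at -1.21. The Kmt2 genes, which code for very long histone H3 lysine 4 methyltransferases, show the other side. All 5 were lower, with differences from -1.62 (Kmt2d, FPKM 3.99 and 0.812) to -1.03 (Kmt2b, 3.11 and 1.25), and after adjustment 0 of 5 was. Of 75 Rpl and Rps genes of cytosolic ribosomal proteins, 0 was called, and the median difference was 0.29 before and 0.13 after adjustment, at a median transcript of 1076.5 bases. These families were gathered by symbol after values were seen.

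RNA-binding and translation families, also gathered by symbol after values were seen, are given beside the 5.22% of all compared genes that were lower. Of 3 Pcbp genes, 2 were lower, with a median of -1.64. Of 20 Hnrnp genes, 3 were lower (Hnrnpa3, from an FPKM of 15.1 to 4.22, and Hnrnpul2 and Hnrnpd). Of 54 Eif genes of translation initiation, 5 were lower, among them Eif1 (199 to 52.4), which helps select the start codon, and Eif4g2 (134 to 52.4). After length adjustment Hnrnpd was at -0.80 and Eif4g2 at -0.99, which left 2 Hnrnp, 4 Eif and 2 Pcbp genes lower. The 1 Hnrnp gene higher after adjustment was Hnrnpr, which went from -0.19 to 1.07 with a transcript of 21452 bases. Of 10 Srsf splicing factors, 0 was lower. Ddx helicase genes had 1 lower of 33, and 1 after adjustment. Rbm genes had 2 lower of 32, and 1 after adjustment. Of the 2 Pabpc genes compared, 1 was lower before and after adjustment. Medians before adjustment were -0.13 for Hnrnp, 0.00 for Eif and 0.02 for Srsf, against -0.09 for all compared genes.

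Genes higher with fatty acids in KO were few and mostly noncoding or predicted. Dpm1, a subunit of dolichol phosphate mannose synthase, which supplies mannose for glycosylation, was the sole gene that the naming rule took as highest. Its FPKM was 4.61 in untreated KO, 13.9 in treated KO, 2.53 in untreated WT and 11.98 in treated WT, so both treated libraries lay above both untreated ones. The difference was 1.25 in KO and 2.14 in WT, with a KO read fold of 2.70 (2.52 to 2.90). The overlapping predicted gene Gm20716 went from 10.9783 to 4.86801 in KO, so how reads were split between them cannot be told apart. Tmub1 (0.653 to 3.23) and Dedd2 (2.08 to 6.67) were the other protein-coding genes called. Both fell short of 2-fold in reads, at 1.60-fold and 1.28-fold. Dpm1 was the 1 gene higher in both genotypes.

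The lists below, 44 in number with 687 genes compared, group genes by function or cell type, and no list had a member called higher in KO. The background over all compared genes is 5.22% lower and 0.105% higher for counts in KO, and 0.645% lower and 2.75% higher for counts in WT. The median of all compared genes was -0.09 in KO and 0.02 in WT. The comparisons in KO and in WT share no library.

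Genes of mitochondrial and peroxisomal fat burning and of ketogenesis, many of them driven by PPARα, were not called in KO. Of 22 genes of mitochondrial fatty acid oxidation, 0 was called and the median was 0.04 (WT 0.34, 0 called). Cpt1a, which brings long-chain acyl groups into mitochondria, had an FPKM of 4.51 in untreated KO, 3.11 in treated KO, 4.26 in untreated WT and 3.22 in treated WT, with a difference of -0.58 in KO. The 7 ketogenesis genes had a median of -0.20 with 0 called. The 18 peroxisomal genes had a median of 0.00, from -0.41 for Pex11a, a factor of peroxisome division, to 0.56 for the thioesterase Acot8.

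Other PPARα targets had 1 lower gene of 16 and a median of 0.00, against 0.64 and 3 higher in WT. That gene was Pdk4, the kinase that shuts pyruvate dehydrogenase. It had an FPKM of 25.8 in untreated KO, 12.05 in treated KO, 19.2 in untreated WT and 103 in treated WT. Treated KO was thus the lowest and treated WT the highest, with differences of -1.20 and 2.62. Angptl4, an inhibitor of lipoprotein lipase that was picked after its values were seen, had 22.9 and 25.3 in KO and 55.7 and 120 in WT.

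The omega-hydroxylases, which oxidize the far end of fatty acids and of which the Cyp4a enzymes appear in the study's title, had 2 of 11 lower in KO and a median of -0.33 (WT 0.54, 0 called). Cyp4a12a went from 21.5 to 8.71 in KO and from 8.83 to 12.1 in WT, a KO difference of -1.37. Cyp4a12b went from 8.61 to 2.95 in KO and from 4.49 to 5.79 in WT, a difference of -1.44. Both are close copies, so their reads may be divided between them. Cyp4a14 had 1.43 and 1.03 in KO against 188 and 237 in WT, and its KO difference was -0.42.

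Storage and uptake genes had few calls. Of 17 lipid droplet and lipolysis genes 2 were lower, and the median was 0.05. Cideb, a droplet protein that also serves VLDL lipidation, went from 4.66 to 1.22 in KO and from 2.07 to 2.51 in WT, and Hsd17b11, found on lipid droplets, from 7.72 to 2.96 in KO and from 6.44 to 7.97 in WT. Plin2, the coat protein of hepatocyte lipid droplets, picked after its values were seen, had 1004 and 1237 in KO and 1358 and 1850 in WT, differences of 0.14 and 0.71. Of 20 uptake, binding and activation genes 2 were lower, Acsl4 (19.2 to 8.62), an acyl-CoA synthetase, and Lrp1 (18.6 to 8.71), an endocytic lipoprotein receptor whose difference of -1.17 was -0.20 after length adjustment. Fabp5, a fatty acid binding protein, had 224 and 365 in KO and 88.8 and 290 in WT, with differences of 0.54 and 1.96.

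Lipid synthesis genes included several calls close to the 2-fold line. Of 19 fatty acid synthesis and desaturation genes 3 were lower, with a median of -0.32 (WT 0.07, 0 called). Scd1, the desaturase that makes oleic from stearic acid, had an FPKM of 424 in untreated KO, 232 in treated KO, 72.3 in untreated WT and 79.6 in treated WT. Untreated KO was the highest and treated KO still lay above both WT libraries, and the KO difference was -1.03. Mlxipl, which codes for the glucose-sensing factor ChREBP, had -1.12 (9.08 to 4.19), and Me1, a source of NADPH, had -1.02 (81.4 to 44.5). Acaca and Fasn, which build palmitic acid, had -0.90 and -0.72, and after length adjustment -0.25 and -0.03. None of 11 triglyceride synthesis genes was called.

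Of 26 cholesterol synthesis genes 2 were lower, with a median of -0.06 (WT -0.49, 3 lower). They were Srebf2, the transcription factor that drives the pathway, at 9.30 and 3.77 in KO and 5.26 and 2.57 in WT, and Dhcr7, its last enzyme, at 10.8 and 5.19 in KO and 2.90 and 3.79 in WT. Abca1, the exporter of cholesterol, was the 1 lower gene of 7 LXR targets (10.8 to 5.00). Apob, the structural protein of VLDL, was the 1 lower gene of 18 apolipoprotein and VLDL genes. It had an FPKM of 244 in untreated KO, 94.5 in treated KO, 219 in untreated WT and 142 in treated WT, a difference of -1.52 in KO and -0.36 in WT. Its transcript has 13934 bases, and its difference adjusted for length was -0.59. Of 14 gluconeogenesis and insulin response genes 2 were lower: Insr, the insulin receptor, went from 11.50 to 4.83 in KO, and Foxo1, which drives gluconeogenic genes, from 2.23 to 0.584, both no longer called after adjustment (-0.63 and -0.62).

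**Figure D4:**
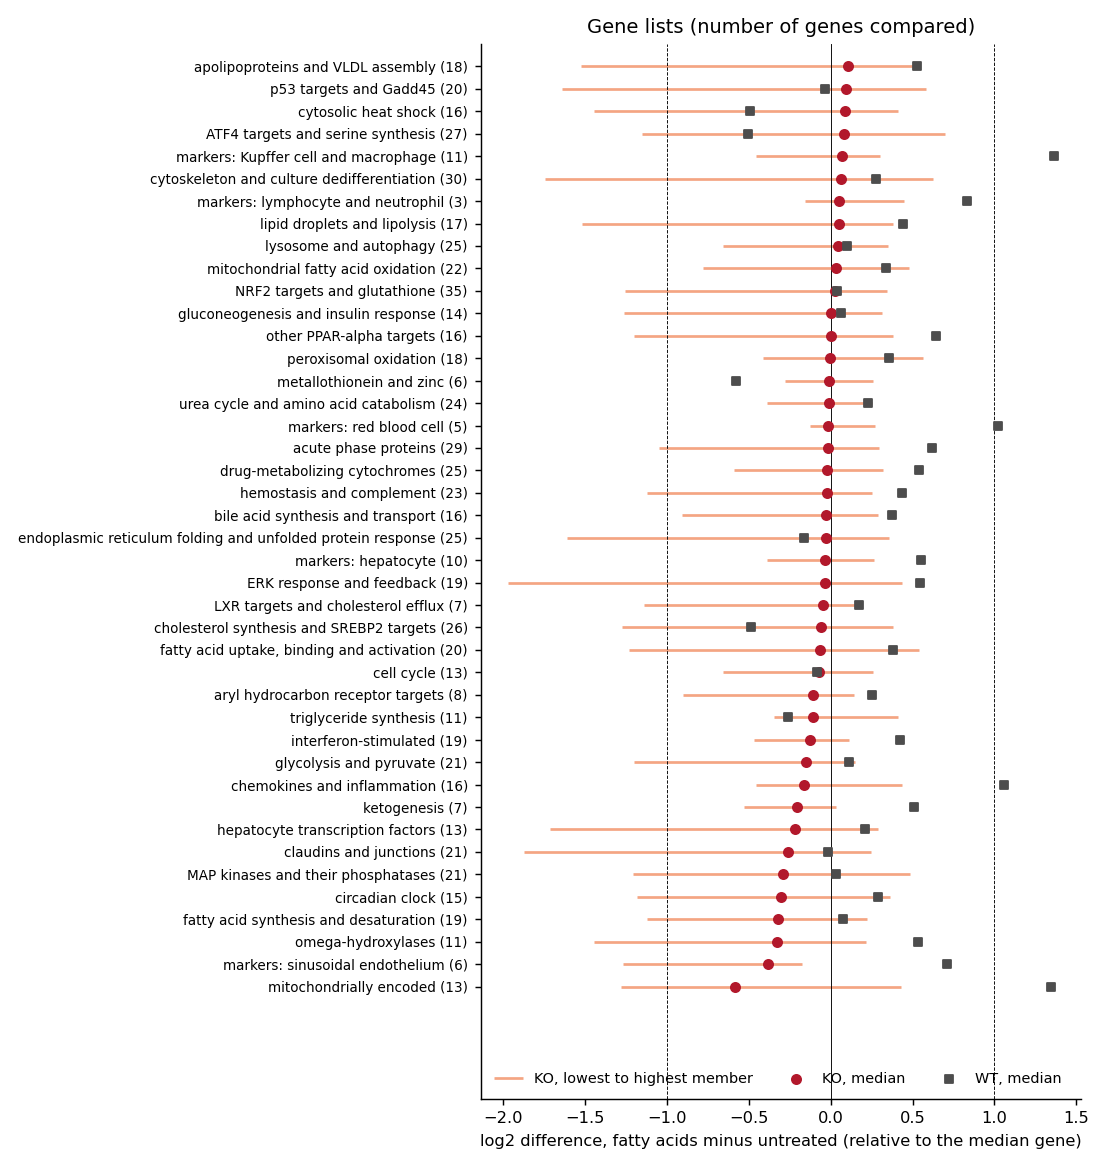
Median difference of each gene list with fatty acids in KO (red circles) and WT (grey squares), in centred log2 units, with the range of KO members as a line and the number of compared genes in brackets (lists with 3 or more). KO medians lie between -0.59 and 0.11, while WT medians reach 1.36 for Kupffer cell markers.

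Genes downstream of ERK were examined since Dusp6 acts on ERK. Of 19 ERK response and feedback genes 2 were lower in KO, at a median of -0.04, and 6 were higher in WT. Egr1, an immediate early transcription factor, had an FPKM of 9.27 in untreated KO, 2.26 in treated KO, 3.73 in untreated WT and 7.56 in treated WT. Treatment thus went with a lower value in KO and a higher one in WT (-1.82 and 1.12). Phlda1, a feedback gene of growth factor signalling, had 30.8 and 8.08 in KO and 17.1 and 20.6 in WT. Of 21 MAP kinases and their phosphatases, Dusp16, a phosphatase of the kinases JNK and p38, went from 46.5 to 22.0 and Braf, a kinase that acts above MEK and ERK, from 5.15 to 2.19. Braf was at -0.44 after length adjustment.

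Stress lists moved in single genes. Of 16 cytosolic heat shock genes, Hsph1 (50.9 to 20.4) and Bag3 (24.7 to 11.49), both partners of Hsp70, were lower in KO, and 2 were lower in WT. Of 25 genes of endoplasmic reticulum folding, Syvn1, a ubiquitin ligase of protein disposal, was lower (6.65 to 1.80). Of 35 NRF2 targets, Osgin1 (236 to 110) and Me1 were lower, and in WT Osgin1 had 215 and 322. Of 27 ATF4 targets, Slc7a1, an arginine carrier, was lower (5.52 to 2.28), while Cebpb had the highest difference, 0.70. Among 20 p53 genes, Trp53 itself (18.2 to 7.59), Cdkn1a (41.4 to 14.2), the cell cycle inhibitor p21, and Zmat3 (6.72 to 1.90) were lower, and all 3 kept the call after length adjustment. In WT these 3 had differences of 0.11, 0.29 and -0.38.

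Lists of liver identity and secretion had few calls. Of 29 acute phase genes Hamp and Crp were lower in KO, and of 23 clotting and complement genes F5 was (10.4 to 4.88). None of 24 urea cycle and amino acid genes, 25 drug-metabolizing cytochromes, 16 bile acid genes, 8 aryl hydrocarbon receptor targets or 6 metallothionein and zinc genes was called in KO. Among 13 hepatocyte transcription factors, Onecut2 (5.62 to 1.26) and Foxa1 (2.85 to 0.645), a pioneer factor of liver genes, were lower. Of 15 clock genes, Per1 and Nr1d1 were lower in KO. Dsg2, a desmosome protein, went from 22.4 to 6.15, the 1 lower gene of 21 junction genes, and S100a11 from 7.66 to 1.89, the 1 lower gene of 30 cytoskeleton and dedifferentiation genes. None of 25 lysosome, 13 cell cycle or 19 interferon-stimulated genes was called in KO.

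Inflammatory genes were called in WT and not in KO, a difference that has no test here. Of 29 chemokine and inflammation genes 16 were compared, since the FPKM limit looked at the KO libraries alone. Of these 16, 0 was called in KO with a median of -0.16, and 10 were higher in WT with a median of 1.06. Cxcl1, a neutrophil chemokine, had an FPKM of 8.64 in untreated KO, 13.6 in treated KO, 135 in untreated WT and 684 in treated WT. Kupffer cell and macrophage markers moved with this: of 11 compared out of 12, 0 was called in KO (median 0.07) and 10 were higher in WT (median 1.36). Their summed FPKM was 170 in untreated KO, 207 in treated KO, 84.4 in untreated WT and 196 in treated WT. Timd4 was the 1 marker of the 12 under 0.1 in both KO libraries, and the other 11 reached the FPKM limit. Among those, Vsig4 had 4.08 in untreated KO and 5.68 in treated KO. The part of these markers in the inflammatory values was not tested.

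Of 10 sinusoidal endothelial markers 6 were compared and Cdh5 was lower in KO (5.44 to 1.99). All 6 had negative differences in KO, from -1.27 to -0.17 with a median of -0.38, while in WT the median was 0.71 with 2 higher. The summed FPKM of the list was 24.0 in untreated KO, 16.9 in treated KO, 8.55 in untreated WT and 16.3 in treated WT, and its part in other results was not tested. Of 6 cholangiocyte markers 2 were compared. Sox9 was lower (5.41 to 1.29), while the more abundant Spp1 had 18.7 and 21.2 in KO, a difference of 0.01. Krt7 and Cftr had an FPKM of 0 in both KO libraries. The 5 red blood cell markers had 0 called in KO and 3 higher in WT. Of 9 stellate cell and 9 lymphocyte and neutrophil markers, 1 and 3 were compared and 0 was called in KO.

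Mitochondrially encoded genes, which code for respiratory chain subunits, had median differences of opposite sign in the genotypes, again with no test. Their 13 transcripts are short, at a median of 784 bases, and had a median difference of -0.59 in KO, with 3 lower, and of 1.34 in WT, with 9 higher. ND4, a subunit of complex I, had an FPKM of 123 in untreated KO, 56.0 in treated KO, 42.7 in untreated WT and 79.0 in treated WT. ND2 had 46.9, 23.8, 20.96 and 53.5, and ND5 had 98.7, 48.1, 47.9 and 73.9. For these 3 genes untreated KO lay above untreated WT and treated KO below treated WT. COX1, a subunit of cytochrome c oxidase, had 4838 and 6168 in KO, a difference of 0.19, so members of the list did not move together in KO.

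Lower in both genotypes were 9 genes. They made up 1.5025% of the KO lower genes, beside 0.645% of all compared genes that were lower in WT, and 12.2% of the WT lower genes, beside 5.22% of all that were lower in KO. The 5 taken by the naming rule were Aak1, Palld, Mical2, Slc35d1 and Actn4. Palld and Actn4, which organize actin bundles, had FPKM of 35.2 and 8.28 and of 75.0 and 22.8 in KO, and 37.4 and 9.95 and 52.9 and 20.1 in WT. Mical2, an enzyme that oxidizes actin, had 14.6 and 5.72 in KO and 5.02 and 1.09 in WT. Slc35d1, a nucleotide sugar carrier, had 9.24 and 1.86 in KO and 7.03 and 2.06 in WT.

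Lower in KO and higher in WT were 24 genes, and 0 genes went the reverse way. The reverse way was open only to the 12 genes higher in KO, and 0.645% of all compared genes were lower in WT. The 0 is therefore no contrast to the 24. The 24 were 4.01% of the KO lower genes, beside 2.75% of all compared genes that were higher in WT, and 7.62% of the WT higher genes, beside 5.22% of all that were lower in KO. Pdk4 had the widest gap between its differences, KO minus WT, at -3.83. Zfp36l1 and Zfp36, which bind AU-rich elements and speed mRNA decay, followed at -3.57 and -3.32. Zfp36l1 had an FPKM of 25.2 in untreated KO, 5.95 in treated KO, 18.4 in untreated WT and 44.6 in treated WT, and Zfp36 had 8.59, 3.75, 3.85 and 16.9. Hamp, which codes for the iron hormone hepcidin, had 76.3, 40.9, 25.2 and 87.1 (gap -3.06). For all 4 genes treated KO lay below treated WT and untreated KO above untreated WT. The gaps come from 1 library per group and have no test.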

How the data were processed

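Total RNA from primary hepatocytes was made into stranded total RNA libraries, per the labels' protocols. The submitters' processing notes list, with no role for each, HISAT2 2.1.0, StringTie 2.1.3b, Bowtie2, Trimmomatic 0.38 and FastQC 0.11.7, and the build mm10. Neither strand setting nor annotation release could be stated, being not given in the sources used here. Overlapping and antisense genes therefore cannot be separated. The authors deposited 1 table, with whole read counts, FPKM and TPM per gene and library, per the file headers. Deposited counts are not normalized, deposited FPKM are scaled to length and library, and deposited TPM also to an equal sum. Libraries held 85423156 to 97364292 reads, and 3 reads equalled a CPM of 0.0308 to 0.0351.

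Main values used log2(FPKM + 1), which understates changes of low genes, centred on the reference genes (shift 0.16 in KO and -0.26 in WT). Exact binomial 95% intervals cover counting error only. Named genes were Dusp6, the 12 highest and lowest with FPKM of 5 or more and a 2-fold read ratio (predicted genes and small RNAs left out by symbol), up to 5 per list by size, and 5 per direction for genes called in both genotypes or oppositely. A few genes within the rule are not reported here. Members and lists were chosen with earlier results of these data known. Transcript lengths came from the longest GENCODE M21 transcript (89.1% of genes matched), and the length curve was a lowess with a span of 0.3 over reference genes. Coordinates are RefSeq on mm10. Steps were tested on simulated data. Software was Python 3.11.15, pandas 2.3.3, scipy 1.17.1, statsmodels 0.14.6, R 4.3.3 and edgeR 4.0.16, used for TMM scaling of counts.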

Additional observations from a re-analysis of the deposited data

Results flagged for a closer look

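The 9 results below were singled out because fatty acids went with a lower value in KO and a higher one in WT. The genes were taken from the named genes alone. Opposite genes outside that set are left out, among them Trp53inp2 (gap -2.84) and TrnF (-2.65). With 1 library per group these opposite directions were not tested. The gap between the differences (KO minus WT, centred log2) was -3.83 for Pdk4, -3.57 for Zfp36l1, -3.32 for Zfp36, -3.06 for Hamp, -2.93 for Egr1, -2.69 for ND2, -2.48 for Per1 and -2.41 for ND4. The median of the mitochondrially encoded list differed by -1.93 between genotypes. For Per1, a clock repressor, the FPKM was 4.35 in untreated KO, 1.64 in treated KO, 2.44 in untreated WT and 6.06 in treated WT.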

How the results depend on the processing

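No paired analysis was possible because each group held 1 library, and no replicate could be left out. Against 12 higher and 599 lower genes, the counts were 56 and 998 with a pseudocount of 0.1, 1 and 149 with 5, 6 and 398 with a filter at FPKM 5, 20 and 393 without centring, 30 and 332 after quantile normalization, and 91 and 1744 with a 1.5-fold rule. TPM gave 37 and 573, TMM-scaled read counts 98 and 751, and leaving out predicted genes and small RNAs 3 and 529. The length adjustment, added after seeing the data, gave 12 and 295, and these 12 were not the same set as the main 12. No filter gave 12 and 611. Lower genes outnumbered higher ones in all 11 settings. No named gene changed direction while called. Called genes lost were 31 of 222 named genes with a pseudocount of 5 (Dpm1, Pdk4, Hamp, Scd1 and others), 12 without centring (Scd1, Me1, Hamp, Crp and others), 12 after quantile normalization, 5 in TMM-scaled counts and 4 in TPM. Among these 222 genes, the length adjustment ended the calls of Apob, Lrp1, Abca1, Insr, Foxo1, Slc7a1, Braf, F5, Onecut2, Mical2, Scd1 and Me1. It brought those of Fth1 and CYTB. Of the 599 lower genes, 545 were also lower in TPM, 541 in TMM-scaled counts, 393 without centring, 329 after quantile normalization, 272 after length adjustment and 149 with a pseudocount of 5. One library per group is the limit: counting error is small at this depth, and the spread between cultures is unknown.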
